A study of Rattus norvegicus with 7 samples.

Results

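Voltage-gated sodium channels, voltage-gated calcium channels and TRP channels form the set described here, in cultured rat oligodendrocyte progenitor cells given an siRNA against RNLTR12-int or a control siRNA. Members were taken by gene symbol: Scn alpha and beta subunits, Cacna1, Cacna2d and Cacnb subunits, and every symbol that begins with Trpc, Trpm or Trpv and a digit. This gave 53 of the 32852 genes in the table, of which 50 are described here. Of the 50, 48 encode channel subunits, and 2 were caught by their names only: Trpc4ap, a protein that associates with a TRP channel, and Trpc5os, a gene on the opposite strand of Trpc5. A mean normalised count of at least 10 over the 7 libraries was reached by 42 of the 50, and these were tested.

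The siRNLTR12-int group held 3 libraries and the control group 4. In both groups the cells came from brains of wild-type rats at postnatal day 7, were seeded at about 40000 per well of a 12-well plate and transfected with Lipofectamine RNAiMAX. Per the labels, RNA was taken after 4 to 5 days in differentiating medium. RNLTR12-int belongs to the endogenous retroviruses of rats. The RNA it gives was not analysed here, and the efficiency of the siRNA is therefore unchecked. The labels name no animal, culture or day behind a biological replicate, so p-values reflect only how far these samples differ among themselves, some of which may be technical.

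Voltage-gated sodium channels consist of a large pore-forming alpha subunit and small beta subunits, which have an immunoglobulin-like domain, alter gating and also act in cell adhesion. Most voltage-gated calcium channels join a Cacna1 pore to a cytosolic Cacnb subunit and an extracellular Cacna2d subunit. TRP channels are cation channels, many permeable to calcium, opened by lipids, heat, osmotic change or calcium itself. Progenitor cells of the oligodendrocyte lineage carry sodium and calcium currents that are known to decline as the cells mature, and calcium entry is known to bear on process growth and on translation of myelin proteins.

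The cultures were mixed. Recovered reads per library ranged from 22523873 to 61803693. All 8 oligodendrocyte lineage markers were above 0 in every library, and the mean log2(normalised count + 1) of this list, its level, was 13.1 to 13.32 in siRNLTR12-int libraries and 13.77 to 15.44 in control libraries. For 5 of the 8 the siRNLTR12-int libraries were all lower than the controls. Astrocyte markers set apart siRNLTR12-int replicate 1 and control replicates 1 and 2, with list levels of 13.04 to 13.53, from the other 4 libraries, at 11.42 to 11.57. These 3 libraries are called high and the other 4 low in astrocyte markers from here on, a division that comes from the data and not from the study. In bulk RNA, fewer cells of a type and less RNA per cell cannot be told apart.

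Promoter sequences are shown for 3 of the members described below that have a transcript start in the RefSeq table (build GRCr8). Each run is the 250 bases before the start, 5′ to 3′ on the gene's strand. Capitals mark a match to 1 of 7 motifs searched on both strands: the GC box GGGCGG, the TATA box TATAAA, a SOX motif ACAAAG, a MYRF motif CTGGNAC, the cyclic AMP element TGACGTCA, the E-box CACGTG and the neuronal silencer element RE1.
Scn2b (chr8:54322133-54322382, plus strand): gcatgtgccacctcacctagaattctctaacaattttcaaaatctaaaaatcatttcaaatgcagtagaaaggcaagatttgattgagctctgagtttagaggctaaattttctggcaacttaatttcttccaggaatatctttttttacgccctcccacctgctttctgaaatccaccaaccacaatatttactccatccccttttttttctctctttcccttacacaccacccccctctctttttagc
Trpv3 (chr10:58381804-58382053, plus strand): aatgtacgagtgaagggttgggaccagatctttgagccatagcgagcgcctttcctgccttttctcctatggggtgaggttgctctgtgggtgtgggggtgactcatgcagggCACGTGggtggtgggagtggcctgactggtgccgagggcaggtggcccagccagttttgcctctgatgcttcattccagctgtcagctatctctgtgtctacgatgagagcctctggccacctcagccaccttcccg
Trpm7 (chr3:134588114-134588363, minus strand): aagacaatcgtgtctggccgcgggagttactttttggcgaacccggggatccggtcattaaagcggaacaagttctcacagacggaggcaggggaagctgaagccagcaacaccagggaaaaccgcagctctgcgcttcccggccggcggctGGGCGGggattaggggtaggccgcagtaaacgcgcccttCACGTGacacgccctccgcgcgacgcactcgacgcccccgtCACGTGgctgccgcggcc
The Trpm7 window held the E-box at 59 and 18 bases before the start and a GC box at 98 bases, the Trpv3 window held an E-box at 137 bases, and the Scn2b window held none of the 7. The E-box was present in 5.59% of all 33469 windows of this length and the GC box in 30.5%. The table held 49 windows for 42 of the 50 members described. Among these 49, 36.7% held the GC box, 14.3% the SOX motif and 14.3% the MYRF motif, beside 30.5%, 16.3% and 14.8% of all windows. The E-box was in 2 of the 49 (4.08%, beside 5.59% of all windows), and those 2 are the windows of Trpm7 and Trpv3 shown above. A match is a description of the letters and not a binding site. Scn3b and Cacna1h, described below, had no entry. Other members described below have entries that are not shown, among them Trpm6, whose windows held none of the 7 motifs.

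After the siRNA against RNLTR12-int, the sodium channel beta subunits Scn3b and Scn2b, the TRP channel Trpv3 and the channel kinase Trpm6 had lower levels at an unadjusted limma p under 0.05. Of the 42 tested members 0 passed the adjustment over all genes. Limma called 0 members at an adjusted p under 0.05 (0% of all genes tested were called), and edgeR called 0. At an unadjusted p under 0.05 limma had 4 members (9.52%, beside 6.3% of all genes tested) and edgeR 3 (beside 6.39%). All 4 were lower after the siRNA, where 2.98% of all genes tested were lower, and 0 were higher, where 3.33% were. The authors' deposited table (DESeq2) called 0 of the members described, where it called 0.752% of the genes it gave an adjusted p, and 3 were at an unadjusted p under 0.05 in it, where 5.19% of its genes were. Trpm6 was not among the 3 of edgeR (unadjusted edgeR p = 0.0929) or the 3 of the authors' table (unadjusted DESeq2 p = 0.0808). A limma fit that weights each library by how closely it follows the fit called 4 members, where it called 4.6% of all genes tested. In the siRNLTR12-int group, replicates 2 and 3 were closer to each other than to replicate 1 (median chi-square per gene 1.28, beside 15.02 and 17.34). How far the weights and these 4 calls rest on that pair was not tested. Of the 42 log2 differences 21 were positive and 21 negative, with a median of 0.017, beside a median of 0.0057 over all genes tested. Every siRNLTR12-int library lay above every control library in 2 members (Cacna1h and Trpm7) and below in 2 (Scn3b and Scn2b), where 4.09% and 3.59% of all genes tested stood apart in these directions.

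**Figure D1:**
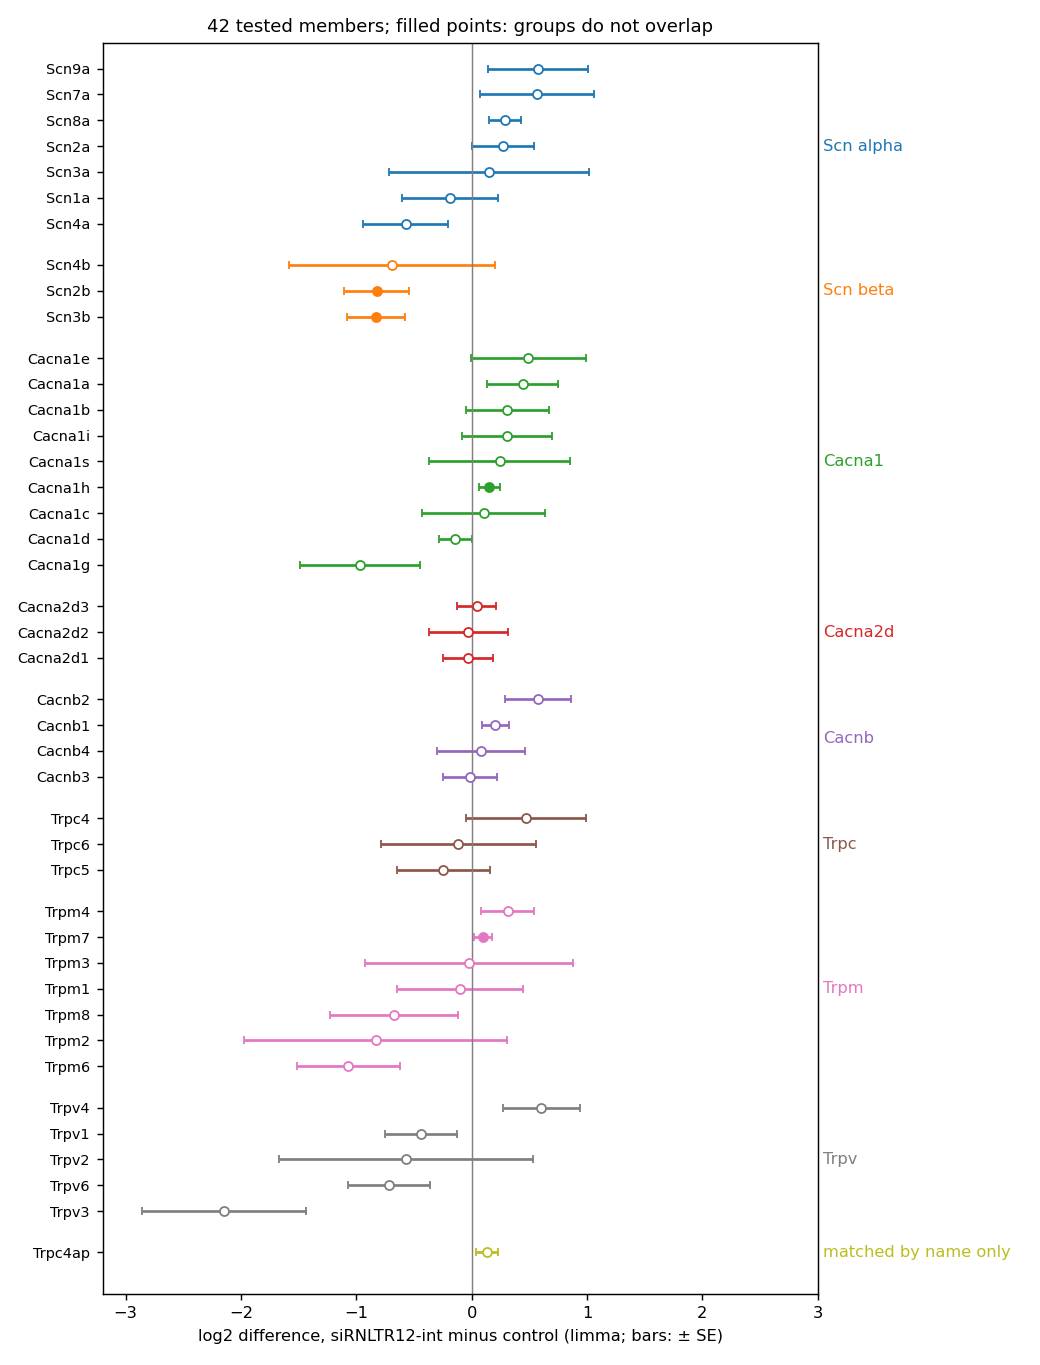
Log2 difference (siRNLTR12-int minus control, limma, bars ± SE) of 42 tested members, ordered within each subfamily. Filled points mark the 4 members whose groups do not overlap. Trpv3 lies farthest to the left, and Trpv4, at 0.60, farthest to the right.

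Among the beta subunits of sodium channels, Scn3b (ENSRNOG00000057221) had 607.5, 686.1 and 623 normalised counts in siRNLTR12-int replicates 1 to 3, against 790.4, 1759, 1041 and 1146 in control replicates 1 to 4. The groups did not overlap, and control replicate 2 was the highest control. The means were 638.9 ± 41.64 (SD, n = 3) after the siRNA and 1184 ± 411.3 (SD, n = 4) in controls. The log2 difference was -0.83 with a standard error of 0.25 (limma adjusted p = 0.691), and the authors' deposited table gave -0.89 (DESeq2 adjusted p = 0.154). The difference was -0.74 among the 4 low-astrocyte libraries and -0.96 among the 3 high ones, with a single siRNLTR12-int library. Scn2b (ENSRNOG00000016221), a beta subunit that is linked to the alpha subunit by a disulfide bond, had 123.3, 72.16 and 83.82 normalised counts after the siRNA, against 133, 180.7, 128.4 and 220 in controls. Its groups did not overlap either, though siRNLTR12-int replicate 1 came close to the lowest control. Its log2 difference was -0.82 with a standard error of 0.28 (limma adjusted p = 0.712). Scn4b, with 2.53 to 39.28 normalised counts after the siRNA and 6.03 to 28.3 in controls, had overlapping groups.

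Control replicate 2, the highest control for Scn3b, also had the most Mbp, which encodes myelin basic protein (401800 normalised counts, where the remaining controls had 78980 to 109400). In the oligodendrocyte marker list the myelin genes Mbp, Mag, Mog and Cnp had log2 differences of -2.75 to -1.18, in the same direction as Scn3b and Scn2b. The transcription factors Olig1, Olig2 and Sox10 of that list had 0.31, 0.25 and -0.35 with overlapping groups. The part of the myelin genes' difference in those of Scn3b and Scn2b was not tested.

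**Figure D2:**
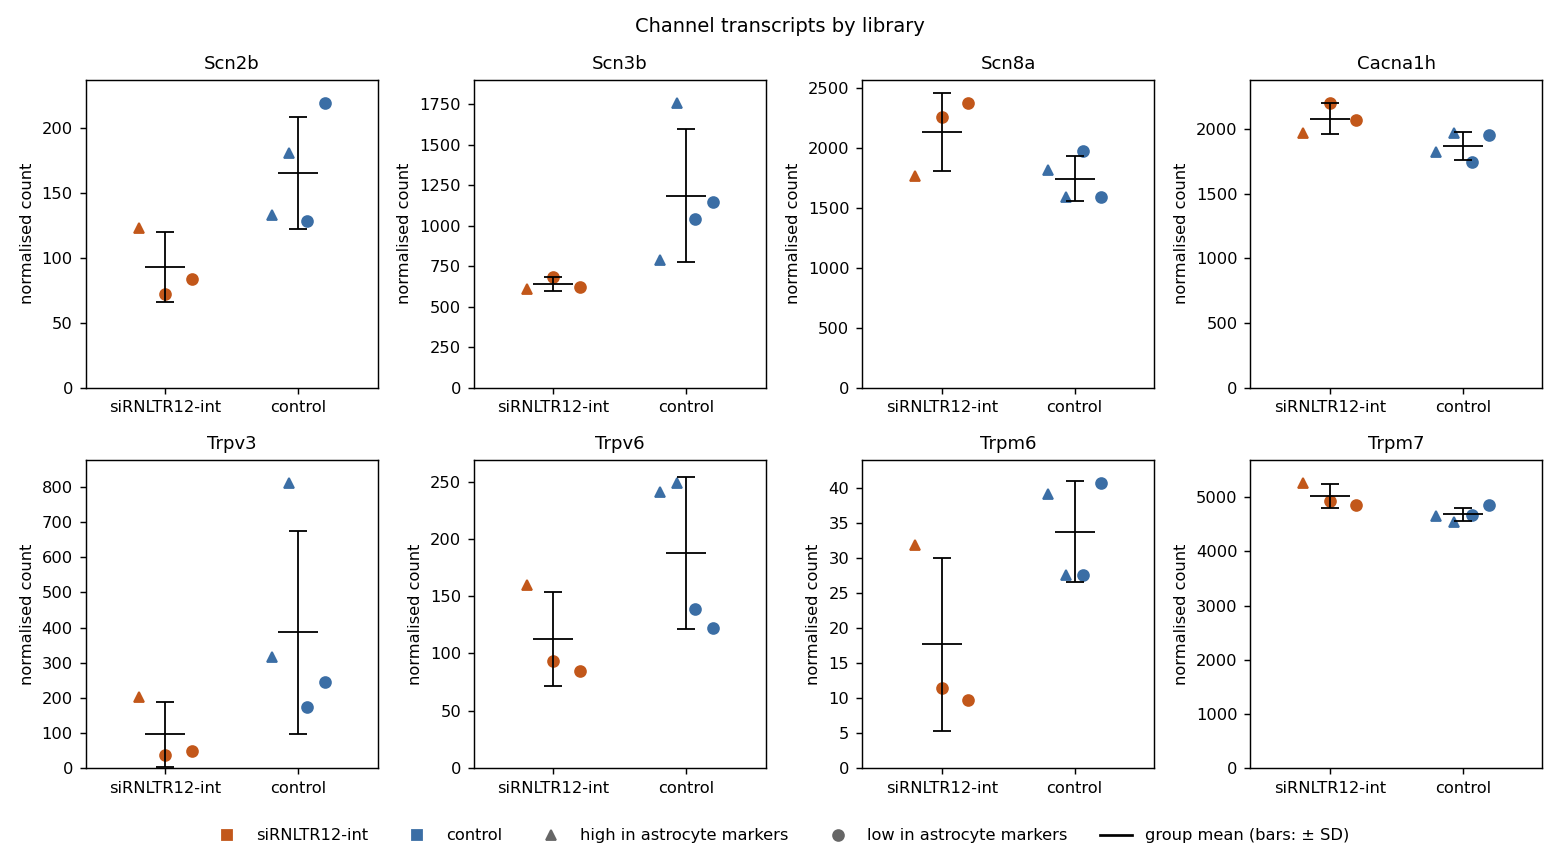
Normalised counts of 8 members in each library, with siRNLTR12-int libraries on the left and controls on the right. Triangles are libraries high in astrocyte markers, circles are those low in them, and lines with bars are the mean ± SD. Scn3b lies at 607.5 to 686.1 in siRNLTR12-int libraries and at 790.4 to 1759 in controls.

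Of 7 sodium channel alpha subunits tested and described, 5 had a positive and 2 a negative log2 difference, and 0 were called by limma, with 0 at an unadjusted p under 0.05 (0 by edgeR as well). Scn8a (ENSRNOG00000005309), the alpha subunit known from mature nodes of Ranvier, had normalised counts of 1769, 2260 and 2380 after the siRNA, against 1816, 1593, 1975 and 1590 in controls. Replicate 1 of siRNLTR12-int was within the control range, and the log2 difference was 0.29 (limma adjusted p = 0.84). The brain alpha subunits Scn1a, Scn2a and Scn3a had log2 differences of -0.19, 0.27 and 0.15, all smaller than or about equal to their standard errors of 0.42, 0.27 and 0.87. Scn4a of skeletal muscle (-0.57), Scn7a, a sodium-sensing channel (0.57), and Scn9a of sensory neurons (0.57) had overlapping groups. Scn10a and Scn11a, both of sensory neurons, were below the filter, with at most 10 and 9 reads in a library.

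Scn3a stood out among the alpha subunits for its spread between libraries, which did not follow the siRNA. Chosen after its values were seen, it had 196.4 normalised counts in siRNLTR12-int replicate 1, against 1218 and 1286 in replicates 2 and 3. In control replicates 1 to 4 it had 190.4, 545, 1170 and 1118. The 3 libraries high in astrocyte markers were thus all below the 4 low ones.

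Among the pore subunits of calcium channels, 9 of 10 were tested, 7 had a positive and 2 a negative log2 difference, and 0 were called by limma, with 0 at an unadjusted p under 0.05 (0 by edgeR as well). Cacna1e (ENSRNOG00000002863), the R-type pore, had 1858, 6183 and 6041 normalised counts in siRNLTR12-int replicates 1 to 3, against 1742, 2829, 4725 and 3151 in control replicates 1 to 4. Replicate 1 of siRNLTR12-int lay near the lowest control and the other two lay above all controls. The log2 difference was 0.49 with a standard error of 0.50 (limma adjusted p = 0.965). It was 1.06 without siRNLTR12-int replicate 1, and 0.20, 0.21 and 0.24 without siRNLTR12-int replicate 2, siRNLTR12-int replicate 3 and control replicate 1. Within the low libraries it was 0.66, and within the high ones -0.26.

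The T-type pores, which open at low voltage, went different ways. Cacna1h (ENSRNOG00000033893) had 1970, 2205 and 2070 normalised counts after the siRNA, against 1819, 1967, 1746 and 1955 in controls. The groups did not overlap, but siRNLTR12-int replicate 1 and control replicate 2 were nearly equal, and the log2 difference was 0.15 with a standard error of 0.091 (limma adjusted p = 0.895). Cacna1g (ENSRNOG00000060528) had 88.62, 159.5 and 260.3 normalised counts after the siRNA, against 145.4, 529.7, 271.5 and 402.7 in controls. Its groups overlapped through control replicate 1, and the log2 difference was -0.97 with a standard error of 0.52 (limma adjusted p = 0.859), which became -0.57 without siRNLTR12-int replicate 1. Cacna1i differed by 0.31 with a standard error of 0.39.

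The L-type pores Cacna1c, Cacna1d and Cacna1s had log2 differences of 0.10, -0.14 and 0.24, and the P/Q-type pore Cacna1a and the N-type pore Cacna1b had 0.44 and 0.31. The groups overlapped in each of these 5 genes. Cacna1f, an L-type pore of the retina, was below the filter, with 0 to 6 reads in a library.

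No auxiliary subunit of calcium channels was called, and 0 were at an unadjusted p under 0.05 by limma or edgeR. Cacna2d1 (ENSRNOG00000033531), which binds gabapentin, had 1776, 1448 and 1506 normalised counts after the siRNA, against 2306, 1599, 1510 and 1194 in controls. All siRNLTR12-int libraries lay inside the control range, and the log2 difference was -0.032 with a standard error of 0.22 (limma adjusted p = 0.998), a sign that turned positive in several alternative fits. Cacna2d2 and Cacna2d3 differed by -0.028 and 0.044, and Cacna2d4 was below the filter with 2 to 14 reads.

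Cacnb1 (ENSRNOG00000004518) had 1931, 1875 and 1954 normalised counts after the siRNA, against 1739, 1398, 1674 and 1896 in controls. Only control replicate 4 reached the siRNLTR12-int range, and the log2 difference was 0.20 with a standard error of 0.12 (limma adjusted p = 0.89), and 0.12 without control replicate 2. In GRCr8, Cacnb1 overlaps Rpl19, a gene of a ribosomal protein, and Cacna1h overlaps Tpsg1. Other members overlap protein-coding genes too, among them Cacnb3 with Tuba1c. The submitters' notes name another build, Rnor_6.0, and whether reads of such pairs were fully separated was not tested. Cacnb2 (ENSRNOG00000018378) had 486.9, 451.9 and 455.3 after the siRNA, against 469.8, 350.5, 299.9 and 189.8 in controls. The siRNLTR12-int libraries were close together, and control replicate 1 lay among them. The log2 difference of Cacnb2 was 0.58 with a standard error of 0.29 (limma adjusted p = 0.841), and 0.34 without control replicate 4. Cacnb3 and Cacnb4 differed by -0.011 and 0.079 with overlapping groups.

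Of the TRP channels, the vanilloid subfamily held the widest difference. Trpv3 (ENSRNOG00000019606), a warmth-activated channel known from skin, had 202.8, 37.98 and 47.55 normalised counts in siRNLTR12-int replicates 1 to 3, against 314.8, 812, 172.4 and 244.8 in control replicates 1 to 4. Replicates 2 and 3 of siRNLTR12-int were below all controls, while replicate 1 was above control replicate 3. The log2 difference was -2.15 with a standard error of 0.71 (limma adjusted p = 0.703), and the authors' deposited table gave -2.01 (DESeq2 adjusted p = 0.231). Within the libraries low and high in astrocyte markers it was -2.25 and -1.31.

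In the RefSeq annotation of GRCr8, Trpv3 overlaps Aspa, which lies on the other strand and encodes aspartoacylase, an enzyme of oligodendrocytes that splits N-acetylaspartate. Aspa had 1015, 116.5 and 127.3 normalised counts after the siRNA, against 1364, 2414, 496.4 and 684.8 in controls, with a log2 difference of -2.05 (limma adjusted p = 0.791). Replicates 2 and 3 of siRNLTR12-int were lowest, and control replicate 2 was highest, in both genes. The libraries were directional per the labels, but the sources used here do not say whether counting made use of strand. The part of Aspa reads in the count of Trpv3 was not tested.

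Trpv6 (ENSRNOG00000014714), a calcium-selective channel of epithelia, had 159.9, 93.68 and 84.62 normalised counts after the siRNA, against 241.1, 248.9, 138.8 and 122.4 in controls. Its groups overlapped through siRNLTR12-int replicate 1, and the log2 difference was -0.72 with a standard error of 0.35 (limma adjusted p = 0.84). Trpv2 (ENSRNOG00000003104), a channel prominent in macrophages, had 692.5, 54.43 and 74.95 after the siRNA, against 930.1, 213.3, 107.7 and 92.25 in controls. It was highest in control replicate 1 and siRNLTR12-int replicate 1. The microglia marker list had levels of 7.602 to 8.802 in the libraries high in astrocyte markers and 4.919 to 6.106 in the low ones, with 6 of its 7 measured genes apart and none at 0 in any library. Its part in the Trpv2 values was not tested. The limma log2 difference of Trpv2 was -0.57 with a standard error of 1.10 (adjusted p = 0.985), and it ranged from -1.71 to 0.14 with 1 library left out.

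Trpv4 (ENSRNOG00000001195), an osmotically gated channel, had 45.68, 31.65 and 41.1 normalised counts after the siRNA, against 38.27, 16.69, 24.13 and 26.61 in controls. Control replicate 1 overlapped the siRNLTR12-int libraries and the other controls were all lower, and the log2 difference was 0.60 with a standard error of 0.33 (limma adjusted p = 0.875). Trpv1, the capsaicin receptor, differed by -0.44 with overlapping groups. Trpv5 was below the filter with at most 3 reads.

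In the melastatin subfamily, Trpm7 (ENSRNOG00000057806), a channel fused to a kinase that carries magnesium and calcium, was the steadiest member. It had 5269, 4936 and 4866 normalised counts after the siRNA, against 4661, 4551, 4676 and 4850 in controls. The groups did not overlap, but control replicate 4 and siRNLTR12-int replicate 3 nearly touched, and the highest library was 1.16 times the lowest. The log2 difference was 0.10 with a standard error of 0.079 (limma adjusted p = 0.935), and 0.066 without siRNLTR12-int replicate 1. Its relative Trpm6 (ENSRNOG00000013053), the other channel with a kinase domain, had 31.97, 11.39 and 9.67 after the siRNA, against 39.23, 27.57, 27.58 and 40.8 in controls. Replicates 2 and 3 of siRNLTR12-int lay below all controls and replicate 1 within them, and the log2 difference was -1.07 with a standard error of 0.45 (limma adjusted p = 0.784). These values rest on 9 to 41 reads per library.

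Trpm3, a steroid-sensitive channel chosen after its values were seen, had 4107 normalised counts in siRNLTR12-int replicate 1, against 605.1 and 782.5 in replicates 2 and 3. In control replicates 1 to 4 it had 3077, 2676, 529.2 and 594.3, and its siRNA difference was -0.023 with a standard error of 0.90. The 3 libraries high in astrocyte markers were all above the 4 low ones. Trpm2, which responds to oxidative stress, spread most of all tested members, from 6.33 to 170.3 normalised counts. Trpm1, Trpm4 and Trpm8 had log2 differences of -0.098, 0.31 and -0.67 with overlapping groups, and Trpm5 was below the filter with 4 to 16 reads.

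The canonical subfamily had few reads. Trpc6 (ENSRNOG00000006324), opened by diacylglycerol, had 234.8, 75.95 and 51.58 normalised counts after the siRNA, against 288, 78.37, 83.6 and 65.64 in controls. It was high in replicate 1 of each group only. The log2 difference was -0.12 with a standard error of 0.67 (limma adjusted p = 0.997), and its sign turned in several alternative fits. Trpc4 and Trpc5 differed by 0.47 and -0.24, each by less than its standard error of 0.52 or 0.40. Trpc7 had 2 to 6 reads in a library. Trpc4ap had 6943, 8100 and 7701 normalised counts after the siRNA, against 6351, 7370, 6937 and 6993 in controls, and Trpc5os had 1 read, in siRNLTR12-int replicate 1, where a count of 0 allows up to 3 reads in each other library.

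Across the 7 libraries the tested members spread more than most genes, with a median of 2.88-fold between the highest and the lowest library. Over the 18069 genes tested that were above 0 in every library this median was 1.75-fold. In 12 members (28.6%) all 3 libraries high in astrocyte markers lay below the 4 low ones, where 17.1% of all genes tested did. In 7 members (16.7%) they all lay above, where 18.6% of all genes did. The 12 were Scn1a, Scn2a, Scn3a and Scn9a among sodium channel pores, Cacna1a, Cacna1b, Cacna1c, Cacna1e and Cacna1i among calcium channel pores, and Cacna2d2, Cacnb3 and Cacnb4 among auxiliary subunits. The 7 were Scn4b, Cacna2d1, Trpm1, Trpm2, Trpm3, Trpv2 and Trpv6. No TRP channel was among the 12, and no sodium or calcium channel pore was among the 7. Progenitor markers had levels of 13.13 to 13.73 in the high libraries and 14.86 to 15.12 in the low ones, with 2 of 3 genes apart. Neuron markers had levels of 7.16 to 8.356 and 7.478 to 8.343, with 3 of 7 apart. The part of cell makeup in these spreads was not tested.

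**Figure D3:**
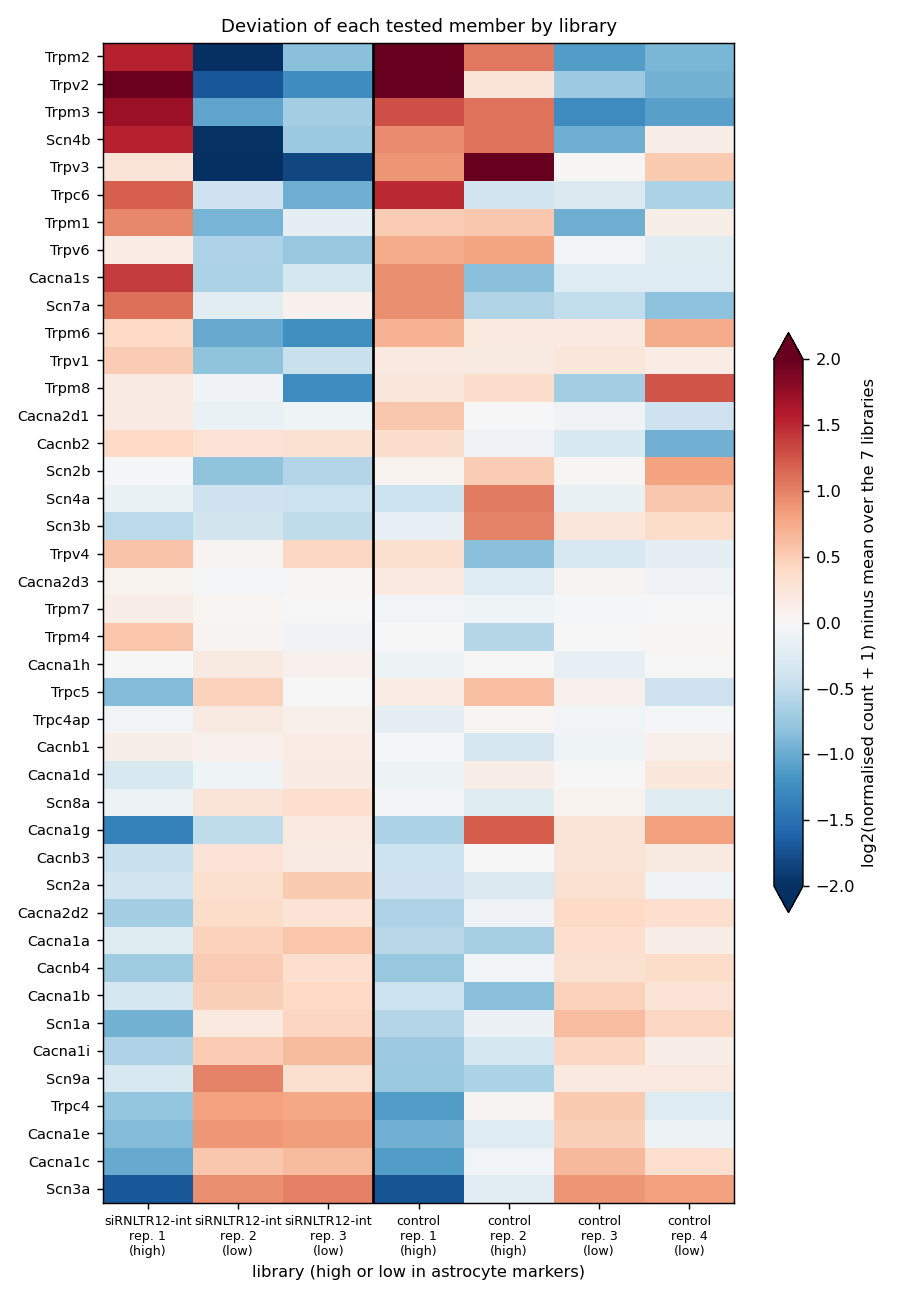
Deviation of log2(normalised count + 1) from the mean over the 7 libraries for 42 tested members, with siRNLTR12-int libraries left of the line and controls right of it. Rows are ordered by the difference between libraries high and low in astrocyte markers. Trpm3 and Trpv2 near the top are high in siRNLTR12-int replicate 1 and control replicate 1, and Scn3a at the bottom is low in them. Colours end at 2 above and below the mean.

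Within the 4 libraries low in astrocyte markers, with 2 libraries a group, limma called 2 of the 42 members (4.76%) where it called 6.68% of all genes tested. They were Scn3b (adjusted p = 0.0154) and Trpv3 (adjusted p = 0.0121). By the median chi-square per gene, the 2 libraries of each group in this set were the closest pair of that group. The errors of this fit rest on those pairs, and the labels do not say whether a pair shares a culture. In 26 members (61.9%) the difference had the same sign in the low and the high libraries, beside 58.5% of all genes tested. For Scn2b the values in the low and the high libraries were -1.10 and -0.33, for Cacnb2 0.92 and 0.26, for Cacna1g -0.70 and -1.64, and for Trpm6 -1.59 and -0.040.

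**Figure D4:**
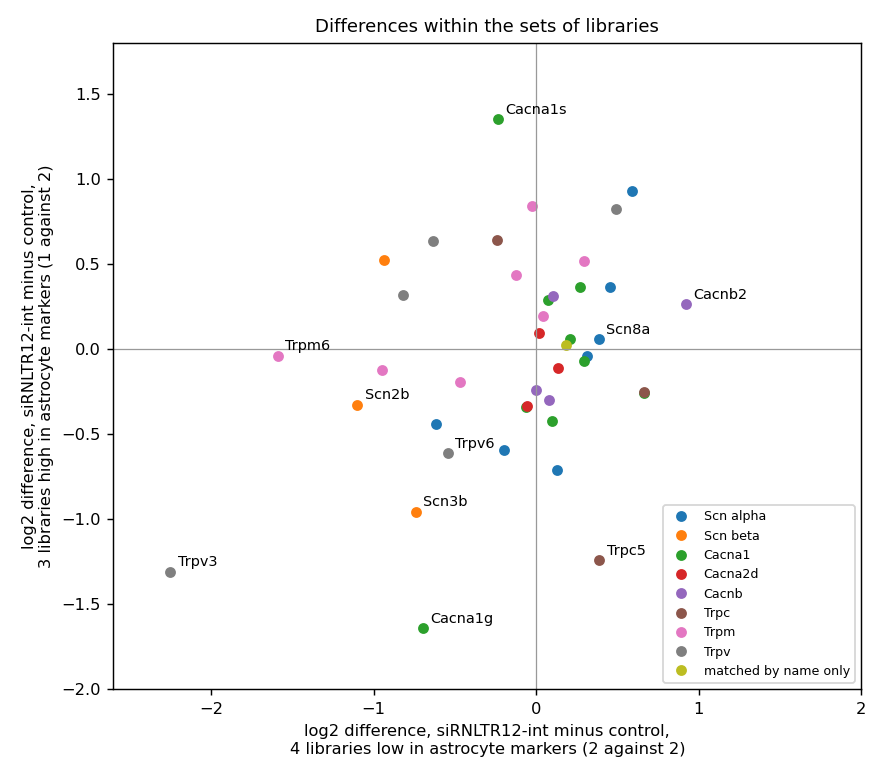
Log2 difference (siRNLTR12-int minus control) of each tested member within the 4 libraries low in astrocyte markers (horizontal axis) and within the 3 libraries high in them (vertical axis). Cacnb2 lies in the upper right and Trpv3, Scn3b and Cacna1g in the lower left.

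Partners of these channels were counted in a list of 80 genes for anchoring and modulation of sodium channels, calcium channel gamma subunits and modulators, the sodium leak channel, endolysosomal and other TRP channels, and calcium release, entry, pumping and sensing. The table held 78 of these symbols, and 75 of 79 rows were tested. Limma called 0 of them (edgeR 0), and an unadjusted p under 0.05 was reached by 7 that were higher and 4 that were lower, where 3.33% and 2.98% of all genes tested were. These 11 are 14.7% of the list, beside 6.3% of all genes tested, and edgeR had 10, beside 6.39%. The list was chosen with earlier results of these data known, so these shares are a description only. The median log2 difference of the list was 0.023, beside 0.0057 over all genes tested. The authors' deposited table (DESeq2) called 1, Nfasc, lower after the siRNA, where it called 0.752% of the genes it gave an adjusted p.

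Nfasc, which encodes neurofascin, an adhesion protein of the node and paranode, had 30100, 26100 and 24900 normalised counts after the siRNA, against 47450, 225200, 64280 and 96510 in controls. Its isoforms were not told apart here. For Nfasc the groups did not overlap, with control replicate 2 again the highest. Its log2 fold change in the authors' table was -2.0 (DESeq2 adjusted p = 0.0208), and its limma log2 difference was -1.74 (adjusted p = 0.661). Ank3, the anchoring protein ankyrin-G, chosen after its values were seen, had 2847, 4562 and 4405 after the siRNA, against 5019, 21110, 7254 and 9308 in controls (limma adjusted p = 0.712).

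Atp2b1, a calcium pump of the plasma membrane, had 4741, 6367 and 5911 normalised counts after the siRNA, against 4100, 3900, 3947 and 3358 in controls, and differed by 0.56 (limma adjusted p = 0.647). Another pump of that family, Atp2b4, had 994.9, 688.6 and 598.8 after the siRNA, against 1321, 1214, 967.9 and 1137 in controls, and differed by -0.63 (limma adjusted p = 0.701). The pumps thus differed in opposite directions, and the groups overlapped for Atp2b4 only. Stac2, an adaptor that holds L-type calcium channels at the membrane, had 657.8, 925.4 and 694.7 after the siRNA, against 516.7, 374.4, 349.1 and 239.5 in controls. Its log2 difference was 1.07 with a standard error of 0.27 (limma adjusted p = 0.652).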

How the data were processed

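RNA was measured in 7 libraries. Per the labels' protocols, ribosomal RNA was removed from total RNA before directional libraries were built and sequenced from both ends. Salmon and DESeq2, without versions, and the build Rnor_6.0 appear in the submitters' processing notes. The authors deposited normalised gene counts, a signal scaled by 1 size factor per library. Per the file headers, their comparison table gives for each gene a mean signal, a test score, a p-value, an adjusted p-value, and a log2 fold change (siRNLTR12-int over control) and its error. Whole numbers could be recovered, since 100% of the values in each library came out whole once divided by the library's step, within 0.01 of a step. They are called reads here, but Salmon estimates counts, so they may be rounded estimates. How reads of related genes were divided is not stated in these sources.

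For the main test, log2(normalised count + 1) was fitted with limma 3.58.1 (mean-variance trend, two-sided, no covariate) over the 18225 genes with a mean of at least 10. Benjamini-Hochberg adjustment ran over all of them. The added 1 pulls fold changes of low genes toward 0, but limma values of low genes were not always smaller in size than those of edgeR. Scn4b had -0.69 by limma and -0.18 by edgeR, and Trpm8, the other way, -0.67 and -0.73. No 2 libraries held identical values. The median chi-square per gene was 1.28 between siRNLTR12-int replicates 2 and 3 and 2.69 between control replicates 3 and 4. For all other pairs within a group it was 6.61 to 17.34. Alternatives were a pseudocount of 0.25 or 8, a minimum mean of 50 or none, TMM rescaling, no trend, array weights, a replicate block, each library left out, edgeR 4.0.16 and DESeq2 1.42.0 on recovered reads, and the division by astrocyte markers as a block or restricted to its low libraries. The fits were tested on simulated data with the same dispersion for every gene and no division by astrocyte markers. That test therefore does not show how the fits behave on the spread of these libraries.

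Members, gene lists and alternatives were chosen with earlier results of these data known. Described in full are the member with the most counts in each subfamily, the 10 with the smallest limma p, members called in the authors' table, members whose groups do not overlap, and the 4 partner genes with the smallest limma p. Of the 53 members, 3 are not reported here and are in no count of members. Promoter sequences came from RefSeq (GRCr8), matched by symbol.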

Additional observations from a re-analysis of the deposited data

Results flagged for a closer look

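Among the 4 control libraries, 1 stood far from the other 3 in 4 of the 42 tested members, by a gap test. Chance meets this test in about 1 of 20 groups of independent, normally spread values, which these controls were not shown to be. The share of all genes that met it was not counted. Scn7a was at 709 normalised counts in control replicate 1 and at 209.3 to 262.9 in the other controls. Trpc6 was at 288 in control replicate 1 and at 65.64 to 83.6 in the others. Trpv2 was at 930.1 in control replicate 1 and at 92.25 to 213.3 in the others. In siRNLTR12-int replicate 1, Scn7a, Trpc6 and Trpv2 were at 792.1, 234.8 and 692.5, each above siRNLTR12-int replicates 2 and 3. Trpm4 was at 144.4 in control replicate 2 and at 216.2 to 218.2 in the others.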

How the results depend on the processing

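The count of members called by limma over all 7 libraries (0) became 2 within the 4 low-astrocyte libraries (Scn3b and Trpv3) and 4 with array weights (Scn2b, Scn3b, Trpv3 and Trpm6), and was 0 with DESeq2. Over all genes the counts in these fits were 1218, 839 and 141, and over partner genes 10, 8 and 1. The 10 partner genes in the low libraries were 13.3% of those tested, beside 6.68% of all genes tested. Array weights called 4.6% of all genes. With 1 library left out, 0 members, 0 partner genes and 0 to 2 genes overall were called (2 without control replicate 4, 1 without siRNLTR12-int replicate 2). The 4 members at an unadjusted p under 0.05 became 15 in the low libraries, 16 with array weights, 8 with the astrocyte division as a block, and 1 to 9 with 1 library left out (9, 1 and 2 without siRNLTR12-int replicates 1, 2 and 3, and 7 without control replicate 1). The share of all genes at that unadjusted p was not counted in these fits, so these numbers are not a result about the members. The cause was not tested. Signs turned for Cacna2d1 (0.14 in the low libraries, 0.068 with array weights, 0.037 with the astrocyte block, -0.17 to 0.14 with 1 library left out), Trpc6 (0.11 with the astrocyte block, -0.75 to 0.36 with 1 library left out) and Trpv2 (-1.71 to 0.14 with 1 library left out). Of 302 values of the 16 members described in full, 285 kept sign and call. Replicate numbers were not shown to pair the libraries: deviations of same-numbered libraries correlated at 0.75, -0.19 and 0.63, and siRNLTR12-int replicate 2 correlated best with control replicate 3 (0.57). With the replicate block 0 members were called and 5 had an unadjusted p under 0.05, again without a share of all genes to set beside them. Members with few reads, such as Trpm6 and Scn4b, are limited by depth.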
